A study of Mus musculus with 4 samples.

Results

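The clustered protocadherins are cell-adhesion genes that lie in 3 neighbouring groups, alpha, beta and gamma, on mouse chromosome 18. Their 58 members were taken by symbol from the 24421 genes of the count files: 14 alpha members (Pcdha1 to Pcdha12, Pcdhac1 and Pcdhac2), 22 beta members (Pcdhb1 to Pcdhb22) and 22 gamma members (12 of the gamma-A subtype, 7 of the gamma-B subtype and Pcdhgc3 to Pcdhgc5). One further symbol of the locus, Pcdha7-g, was outside the naming pattern and was listed at 0 in every library.

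Each member has a promoter and a large variable exon of its own that encodes the extracellular cadherin repeats, the transmembrane segment and part of the cytoplasmic tail. In the alpha and gamma clusters that exon is spliced to a set of constant exons that all members of the cluster share, whereas beta members have no constant exons. Single neurons use a few variable promoters each, so that the combination of protocadherins on a cell labels it, and the proteins bind homophilically between cells. Promoter choice is known to involve CTCF and cohesin, and DNA methylation keeps unused promoters silent. The 5 C-type members (Pcdhac1, Pcdhac2, Pcdhgc3, Pcdhgc4 and Pcdhgc5) are the exception, since many neurons use them together.

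RNA of R1, an established line of mouse embryonic stem cells (ESCs), was sequenced with Illumina TruSeq libraries in the Undiff state (2 libraries) and in the Day4 state (2 libraries). Undiff was ESCs kept with leukaemia inhibitory factor according to the methods, and embryoid bodies according to the labels. Day4 was embryoid bodies, which are ESC aggregates. According to the methods they grew for 4 days without the factor and then had 4 days with retinoic acid (RA). The RA dose was 2 µM in the design text and 2 mM in the labels. Withdrawal of the factor, aggregation, time in culture and RA therefore cannot be told apart. Both states come from a single cell line, no genetic change is named, and no sort is described. The question was which genes change with this differentiation.

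Counts on genes per library ran from 32099074 to 47730944, and 3 counts or fewer were taken as the floor of detection, which covers counting error only. The labelled identity of the cells matched their markers in Undiff, where 8 pluripotency genes summed to 141000 and 144000 normalized counts (counts scaled to a common library size), and all 8 fell, to 791 and 666 in Day4. The sum of 11 neuron markers was 13600 and 13800 in Undiff and 3610 and 3560 in Day4, with 3 higher and 5 lower. Stmn2 alone gave 7260 and 7570 of the neuron sums in Undiff. The 6 neural progenitor markers summed to 1860 and 2000, then to 3910 and 4340, with 2 higher and 2 lower. Nes alone gave 1620 and 1750 of these counts in Undiff and 3720 and 4200 in Day4. All 8 mesenchyme markers rose, from sums of 1920 and 1790 to 72500 and 66600, and all 6 endoderm markers rose, from 253 and 304 to 20500 and 20200. Gata4 (9530 and 9710) and Gata6 (10600 and 10100) gave most of the endoderm sums in Day4, so that these sums follow a few genes. Of all the markers listed, Afp was at 0 in both Undiff libraries and none was at 0 in both Day4 libraries. The part of these other cells in the protocadherin results was not tested, and in bulk RNA more cells of a type and more RNA per cell cannot be told apart.

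In the GRCm38 annotation, all members lie on the plus strand. The alpha cluster spans chromosome 18 from 36930184 to 37187661 (257.5 kb), the beta cluster from 37264938 to 37524479 (259.5 kb) and the gamma cluster from 37661793 to 37841873 (180.1 kb). The sharing of exons decides what could be counted. Of the exonic bases of a member, a median of 53.45% in alpha and 44.7% in gamma also belonged to another gene, compared with 0% in beta. Fragments on shared exons count for no single gene, so that the values of alpha and gamma members describe their own variable exons. Levels are therefore compared between members per kilobase of bases that belong to that member alone. Windows of 100 bases of the first exon that recur in another member were rare, with a median of 5.21% in alpha, 0.205% in beta and 0% in gamma, and a maximum of 37.4% in Pcdhga4. These windows include stretches where the annotated members overlap each other, which the bases of a member alone leave out. At Pcdhga4, 66.8% of the exonic bases also belonged to another member, the highest share in gamma, so that its count is uncertain.

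Of the 58 members, 45 rose from Undiff to Day4, 1 fell, 9 did not pass the test and 3 had no counts to test. A differentially expressed gene (DEG) had to reach a log2 fold change of 1 in either direction, with an adjusted p no greater than 0.05 and a mean of 5 or more normalized counts. Among all 19891 genes tested, 42.8% were DEGs, 22.2% being higher and 20.6% lower. Against that background, 95.5% of the beta members rose (21 of 22), as did 81.8% of the gamma members (18 of 22) and 42.9% of the alpha members (6 of 14). The 14 alpha members include the 3 with no counts to test, whereas the background leaves such genes out. The gamma cluster held the only member that fell. The median log2 fold change was 2.82 over the 11 alpha members tested, 6.09 in beta and 3.08 in gamma, compared with -0.03 over all genes tested. With the 5 beta members that had no count in Undiff set to their lower bounds, the beta median was 5.11. The mean normalized count was below 5 for 5 of the alpha members tested and for 1 beta member, and dropping that minimum added no DEG in any cluster. Since 2 libraries against 2 cannot give an exact permutation p (two-sided) below 0.333, each adjusted p relies on the spread that edgeR borrows from all genes.

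**Figure D1:**
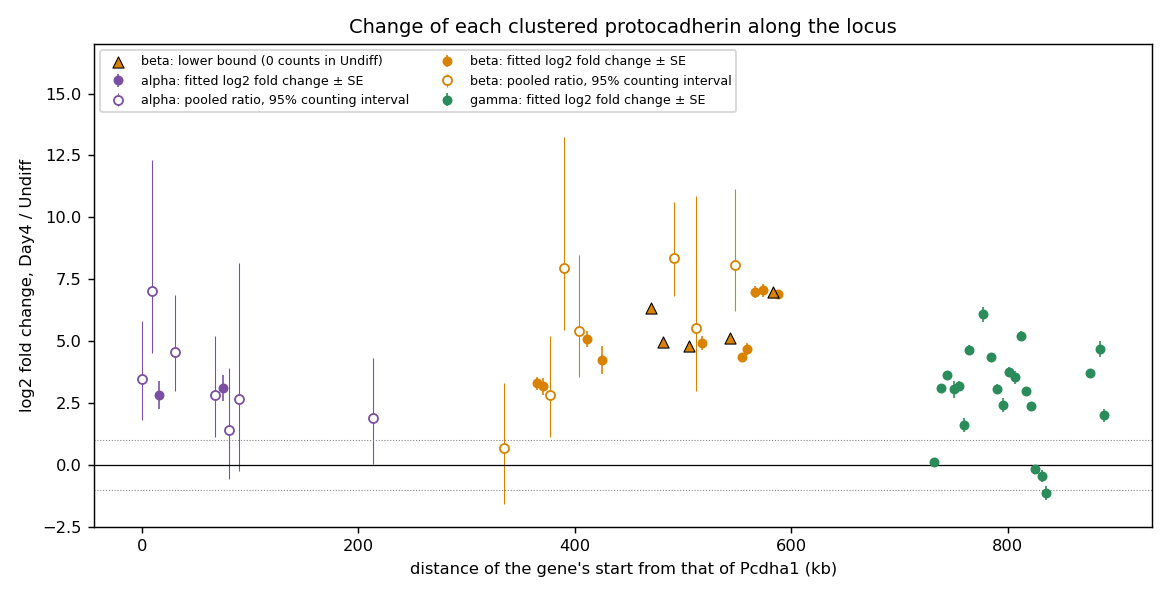
Log2 fold change between Day4 and Undiff (vertical axis) for each member with more than 3 counts in at least one state, placed by the distance of its start from that of Pcdha1 in kb (horizontal axis). Filled points are fitted values with their standard error, open points are ratios of pooled counts with a 95% counting interval where Undiff held 1 to 3 counts, triangles are lower bounds where Undiff held none, and dotted lines mark a log2 fold change of 1 in either direction. Beta members lie higher than most alpha and gamma members, and 3 adjacent gamma members lie below 0.

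The alpha cluster, as counted, was the least expressed of the 3. All 6 members that passed the test rose, and they were Pcdha1, Pcdha2, Pcdha3, Pcdha5, Pcdha9 and Pcdha10, each a neural adhesion receptor with its own variable exon. Pcdha2 led the cluster. It had 0 and 1.2 normalized counts in the Undiff libraries and 75.2 and 69.9 in Day4, or 1 count against 163 in the pooled libraries. That is a depth-corrected ratio of 130 with a 95% interval of 22.9 to 5150 that covers counting error only (adjusted p = 3.5e-08, edgeR).

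Pcdha5 was the second, with 0 and 3.59 normalized counts in Undiff and 38.7 and 39.9 in Day4. Its ratio of pooled counts was 23.6 (95% counting interval 7.81 to 116). Pcdha10 had 2.08 and 3.59 in Undiff and 27.2 and 23.8 in Day4, a log2 fold change of 3.12 ± 0.52 (SE). In none of these members did the libraries of the states overlap. Pcdha3 rose by a log2 fold change of 2.82 ± 0.55, from 2.08 and 3.59 to 21.9 and 19.2 normalized counts. Pcdha1 went from 3.13 and 0 to 19.8 and 17.7, and Pcdha9 from 3.13 and 0 to 13.6 and 10.7, with ratios of pooled counts of 11.1 (3.55 to 56.1) and 7.15 (2.2 to 36.8). With so few Undiff counts, the sizes depended on single libraries. Without Undiff replicate 1 the fitted log2 fold change of Pcdha2 was 5.78 and that of Pcdha5 was 3.41. Without Undiff replicate 2, that of Pcdha1 was 2.53 and that of Pcdha9 was 1.90. Leaving out the other Undiff library left no Undiff count in each of these 4 genes. Without Day4 replicate 1, Pcdha9 still rose, by a log2 fold change of 2.60, but its mean over the libraries left was below the minimum of 5. Leaving out a Day4 library lowers the mean of any gene that rose.

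Of the other alpha members, 5 were tested and did not pass. Pcdha11 had 3.13 and 0 normalized counts in Undiff and 5.22 and 3.84 in Day4, and Pcdha12 had 1.04 and 0, then 1.04 and 5.37. In the GRCm38 annotation 2 antisense genes cover 71.4% of the own exonic bases of Pcdha11 and one of them covers 21.5% of those of Pcdha12. Per the methods, gene counting took account of library strandedness, and only the Direct RNA libraries are named as strand-specific, so that TruSeq fragments from antisense genes may be included here and at the members below with such an overlap. Pcdha8 held 2 counts in all 4 libraries together. Pcdha4, Pcdha6 and Pcdha7 were listed at 0 in every library. Same-strand genes of the annotation cover 83.0%, 8.9% and 13.6% of the own exonic bases of these 3 members. The gene over Pcdha6, Gm37013, was also listed at 0 in every library. The genes over Pcdha4 and Pcdha7, Gm42416 and Gm37388, do not occur under these symbols in the count files. The part of this overlap in the zeros was not tested, and Pcdha8, which no same-strand gene overlaps, was also at the floor.

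The beta cluster changed the most. Each of its members is a single-exon gene or close to one, and 21 of 22 rose, 20 of them by a fitted log2 fold change above 3. In Undiff, the libraries held only 77 and 74 counts on the whole cluster, and Pcdhb9, Pcdhb10, Pcdhb12, Pcdhb15 and Pcdhb21 had no count in either library. Pcdhb21 reached 212 and 213 normalized counts in Day4, at least 127-fold higher than the floor of 3 counts over both Undiff libraries. Pcdhb9 reached 149 and 127 (at least 81.6-fold higher), and Pcdhb15 reached 57.5 and 58.4 (at least 34.7-fold). Pcdhb10 reached 51.2 and 52.2 (at least 31-fold), and Pcdhb12 reached 49.1 and 45.3 (at least 28.1-fold). These bounds follow the Day4 counts and do not rank the 5 genes against the rest. An antisense gene covers 63.5% of Pcdhb12 in the annotation.

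**Figure D2:**
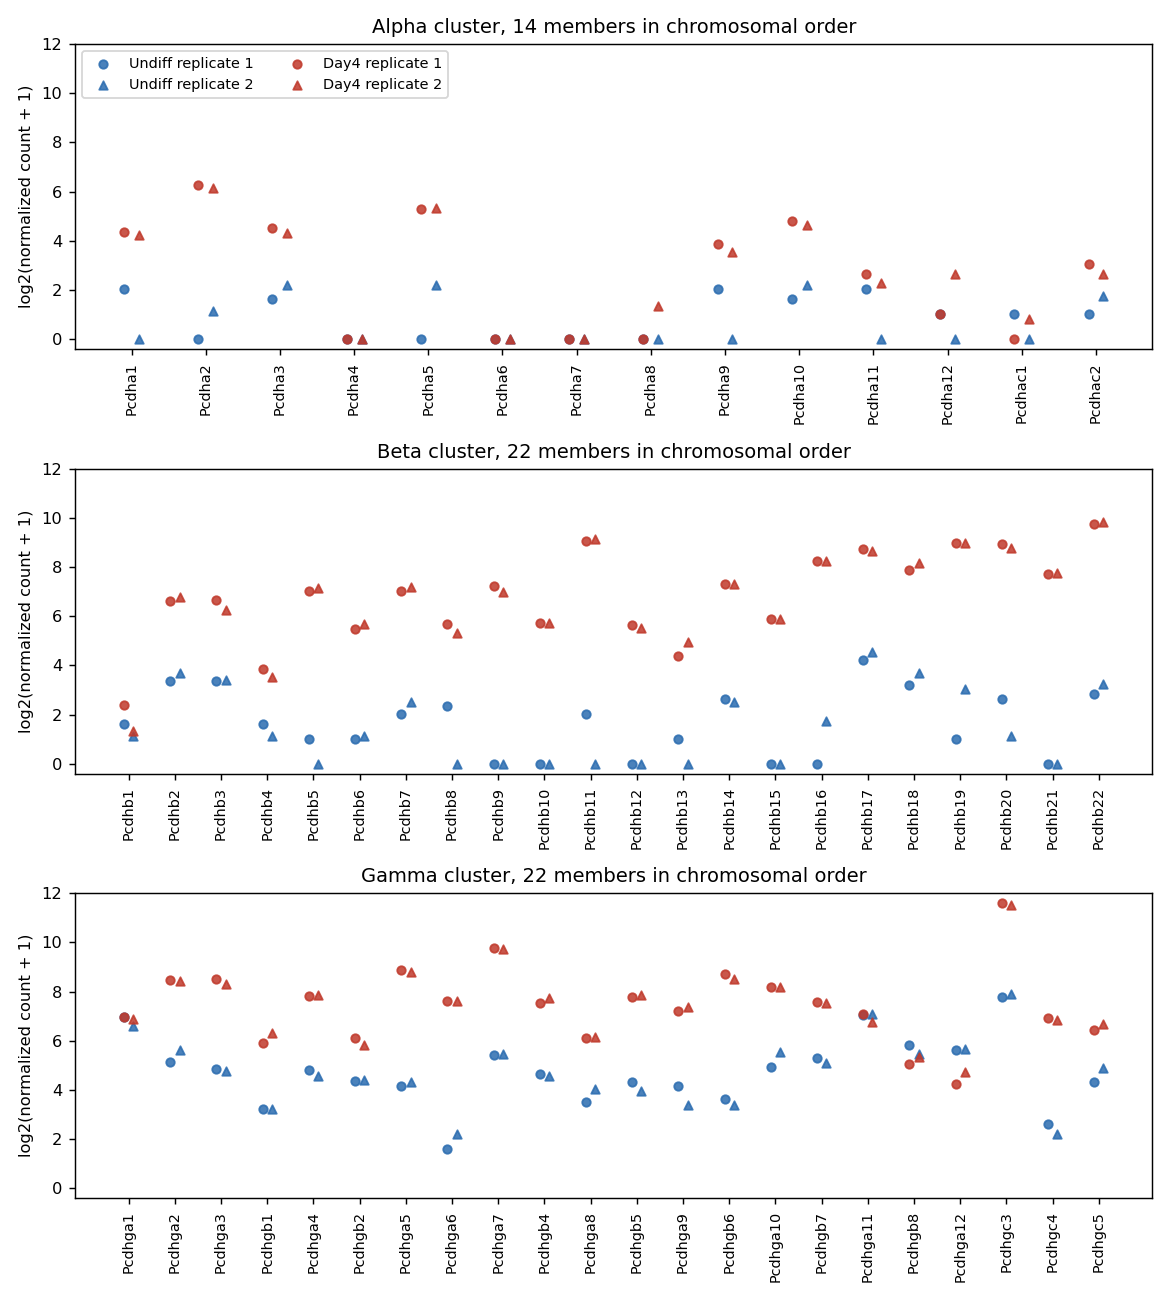
Normalized counts of every member in each of the 4 libraries, as log2(normalized count + 1) on the vertical axis, with the members of each cluster in chromosomal order on the horizontal axis. Blue symbols are Undiff and red symbols Day4, with circles for replicate 1 and triangles for replicate 2. Red symbols stand above blue ones for nearly all beta and gamma members, and meet or cross them at Pcdhb1, Pcdhga1, Pcdhga11, Pcdhgb8 and Pcdhga12.

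The largest beta level in Day4 was that of Pcdhb22, the last gene of the cluster. It had 6.25 and 8.38 normalized counts in Undiff and 859 and 898 in Day4, a log2 fold change of 6.90 ± 0.17 (adjusted p = 3.6e-13, edgeR). Pcdhb11 stood at 3.13 and 0 in Undiff and at 538 and 557 in Day4, which is 3 pooled counts against 1240 and a ratio of 328 (95% counting interval 112 to 1590). Pcdhb19 went from 1.04 and 7.18 to 508 and 505 normalized counts, and Pcdhb20 from 5.21 and 1.2 to 491 and 432. Their log2 fold changes were 6.98 ± 0.25 and 7.05 ± 0.27, that of Pcdhb20 being 8.44 without Undiff replicate 1 and 6.43 without Undiff replicate 2. The fitted value of Pcdhb11 was 7.40 without Undiff replicate 2, and without replicate 1 no Undiff count was left. For each of these 4 genes the lowest Day4 library exceeded the highest Undiff library by a wide margin, and the Undiff replicates differed from each other by only a few counts.

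The 5 lowest fold changes among the beta DEGs were those of Pcdhb17, Pcdhb2, Pcdhb3, Pcdhb8 and Pcdhb4. Pcdhb17 was the highest in Undiff, with 17.7 and 22.7 normalized counts, and reached 420 and 401 in Day4 (log2 fold change 4.34 ± 0.17). Pcdhb2 rose from 9.38 and 12 to 98.2 and 110, and Pcdhb3 from 9.38 and 9.57 to 101 and 74.5, with log2 fold changes of 3.29 ± 0.28 and 3.17 ± 0.33. Pcdhb8 rose from 4.17 and 0 to 50.1 and 39.2 (log2 fold change 4.23 ± 0.57), a value that 1 library set, at 8.50 without Undiff replicate 1, which leaves no Undiff count, and 3.36 without Undiff replicate 2. Pcdhb4 had 2.08 and 1.2 in Undiff and 13.6 and 10.7 in Day4, a ratio of pooled counts of 7.15 (2.2 to 36.8). Without Day4 replicate 1 its log2 fold change was 2.60, but its mean over the libraries left was below the minimum of 5.

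Pcdhb1, the first gene of the cluster, was the beta member that did not pass. Its normalized counts were 2.08 and 1.2 in Undiff and 4.18 and 1.54 in Day4, and the states overlapped. Its ratio of pooled counts was 1.59 with a 95% counting interval of 0.339 to 9.82, so that a change of several-fold was not detectable at this depth. The 7 beta members not named so far in this cluster's account, Pcdhb5, Pcdhb6, Pcdhb7, Pcdhb13, Pcdhb14, Pcdhb16 and Pcdhb18, all rose. Among them Pcdhb18 rose by a log2 fold change of 4.69 ± 0.24 and Pcdhb16 went from 0 and 2.39 to 300 and 302 normalized counts.

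Per kilobase of own exon, the order of the beta members in Day4 was headed by Pcdhb22 at 143 ± 4.46 normalized counts (SD, n = 2), Pcdhb20 at 130 ± 11.7 and Pcdhb11 at 124 ± 2.99. Pcdhb20 lay within its own SD of Pcdhb11, and its distance to Pcdhb22 was close to that SD. Pcdhb17 at 88.1 ± 2.91 and Pcdhb19 at 70.9 ± 0.246 followed, separated by more than their SDs. The lowest were Pcdhb4 at 3.27 ± 0.538 and Pcdhb1 at 1.1 ± 0.722. Levels in Day4 thus spanned 2 orders of magnitude within the cluster. Members farther along the chromosome had higher Day4 levels, with a Spearman coefficient of 0.66 between position and level per kilobase and of 0.48 between position and log2 fold change over the 22 members, which come from the same libraries. In gamma the same coefficients were -0.26 and -0.14 over 22 members.

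The gamma cluster was the only one with sizeable expression in Undiff. Its 22 members together had 931 and 936 normalized counts in Undiff, and between them 18 rose, Pcdhga12 fell, and Pcdhga1, Pcdhga11 and Pcdhgb8 did not pass. Of the 12 gamma-A members 9 rose and 1 fell, with a median log2 fold change of 3.14, and of the 7 gamma-B members 6 rose, with a median of 3.05. Summed levels of gamma-A members went from 512 and 516 to 3270 and 3150 normalized counts (6.25-fold), and those of gamma-B members from 176 and 152 to 1180 and 1170 (7.15-fold).

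The steepest rise in gamma was that of Pcdhga6, from 2.08 and 3.59 normalized counts to 196 and 197 (log2 fold change 6.08 ± 0.30, adjusted p = 3.5e-10, edgeR). Pcdhgb6 rose from 11.5 and 9.57 to 423 and 368 (5.20 ± 0.21). Pcdhga5 rose from 16.7 and 19.1 to 474 and 439 (4.66 ± 0.17). In all 3 genes the states were far apart and the replicates close. Pcdhga7 rose from 41.7 and 43.1 to 879 and 849 (4.35 ± 0.12) and was the highest gamma-A member in Day4, at 279 ± 6.7 normalized counts per kilobase (SD, n = 2). An antisense gene covers 17.3% of the own exonic bases of Pcdhga7. Pcdhga5 was next among the variable gamma members, at 179 ± 9.75 per kilobase, below Pcdhga7 by more than their SDs.

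Smaller rises were measured at Pcdhgb2, from 19.8 and 20.3 to 68.9 and 56 normalized counts (log2 fold change 1.61 ± 0.27), and at Pcdhgb7, from 38.6 and 33.5 to 191 and 183 (2.36 ± 0.18). Pcdhga8 rose from 10.4 and 15.6 to 67.9 and 70.6 (2.43 ± 0.29). Antisense genes cover 29.7% of the own exonic bases of Pcdhgb7 and 16.6% of those of Pcdhga8. The other 8 gamma-A and gamma-B members that rose, among them Pcdhga2, Pcdhga3, Pcdhga9 and Pcdhga10, had log2 fold changes between 2.97 and 3.76. An antisense gene covers all of the own exon of Pcdhga10, whose counts are uncertain for this reason.

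Pcdhga12 was the member that fell. It had 47.9 and 50.3 normalized counts in Undiff and 17.8 and 25.3 in Day4, a 2.21-fold lower level with states that did not overlap (log2 fold change -1.14 ± 0.28, adjusted p = 0.0021, edgeR). Without Day4 replicate 1 the log2 fold change was -0.95 and no longer passed the minimum fold change, so that no gamma member then counted as lower. Pcdhga11 and Pcdhgb8, the genes just before it on the chromosome, also did not rise. Pcdhga11 had 132 and 135 normalized counts in Undiff and 134 and 107 in Day4, overlapping between the states (log2 fold change -0.18 ± 0.16, adjusted p = 0.31, edgeR). Pcdhgb8, which the annotation types as a polymorphic pseudogene, had 55.2 and 43.1 in Undiff and 32.4 and 39.2 in Day4 (log2 fold change -0.45 ± 0.25, adjusted p = 0.12, edgeR).

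Pcdhga1, at the other end of the variable gamma exons, had 125 and 96.9 normalized counts in Undiff and 124 and 117 in Day4 (log2 fold change 0.11 ± 0.16, adjusted p = 0.55, edgeR). The 95% counting interval of its ratio was 0.893 to 1.3, and that of Pcdhga11 was 0.74 to 1.06, so that depth did not hide rises as large as those of the other gamma members. In Undiff, Pcdhga11 at 50.7 ± 0.767 and Pcdhga1 at 34.2 ± 6.13 normalized counts per kilobase (SD, n = 2) were the highest of all 58 members after Pcdhgc3. These 4 genes that did not rise took 38.7% and 34.8% of the gamma counts in the Undiff libraries and 3.95% and 3.89% in Day4. They were picked out after their values were seen. Antisense genes cover 52.4% of the own exonic bases of Pcdhga11, 12.5% of those of Pcdhga1 and 9.3% of those of Pcdhga12, and none of Pcdhgb8, and their part in these counts was not tested.

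**Figure D3:**
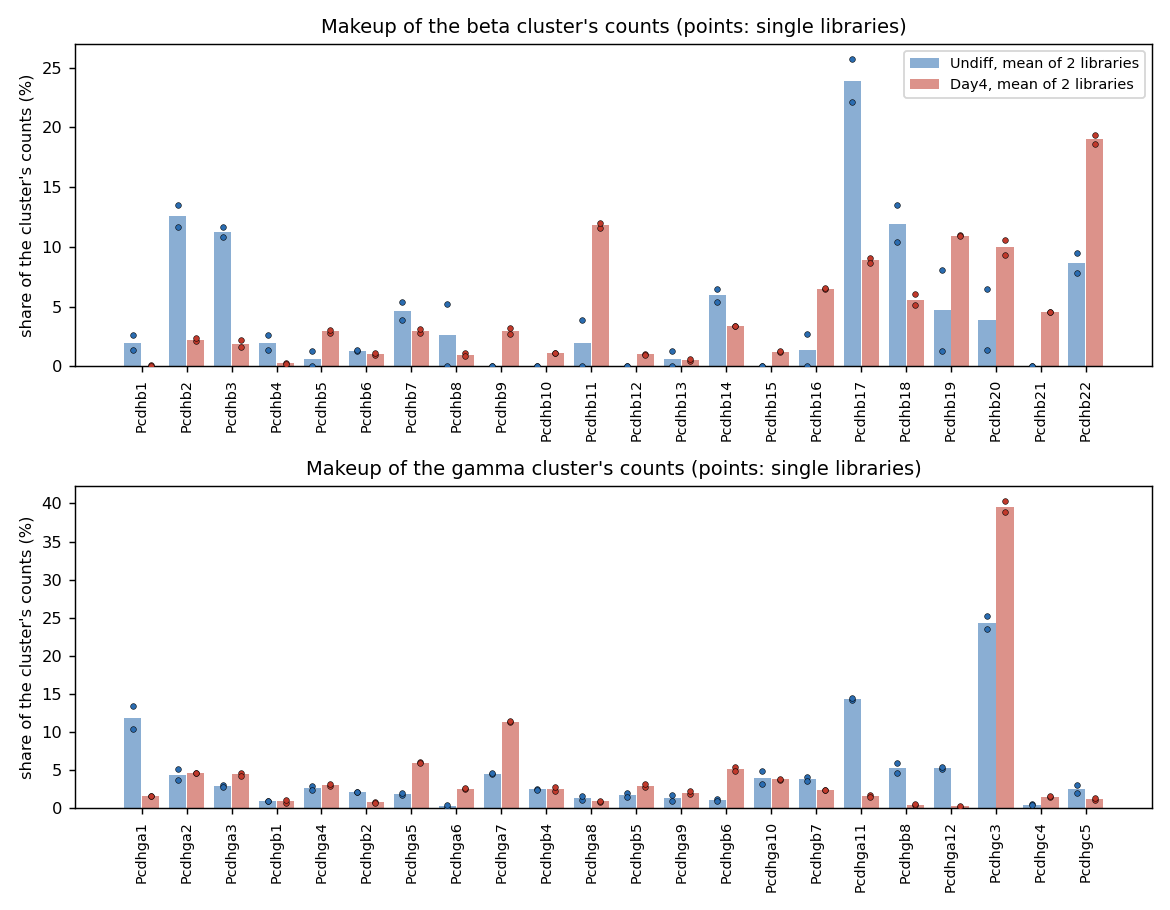
Share of each member in the counts of the beta cluster (top) and of the gamma cluster (bottom), in percent, with members in chromosomal order. Bars are means of the 2 libraries of a state, blue for Undiff and red for Day4, and points are the single libraries. In gamma, Pcdhga1, Pcdhga11, Pcdhgb8 and Pcdhga12 shrink from 38.7% and 34.8% of the counts to 3.95% and 3.89%, while Pcdhgc3 and Pcdhga7 gain.

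The C-type members did not move as a block. Pcdhgc3 was the most abundant of all clustered protocadherins in both states, with 219 and 236 normalized counts in Undiff and 3140 and 2890 in Day4 (log2 fold change 3.73 ± 0.08, adjusted p = 7e-14, edgeR). Per kilobase it stood at 67.2 ± 3.53 in Undiff and at 892 ± 51.4 in Day4 (SD, n = 2), where Pcdhga11, at 50.7, was the next in Undiff and Pcdhga7, at 279, the next in Day4. An antisense gene covers 46.1% of its own exonic bases. Pcdhgc4, which interneurons need for survival, rose from 5.21 and 3.59 to 120 and 115 (4.68 ± 0.32). Pcdhgc5 rose from 18.8 and 28.7 to 85.7 and 101 (2.00 ± 0.25). In the annotation the same-strand gene Gm38182, a symbol not in the count files, covers 16.4% of the own exonic bases of Pcdhgc5.

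The C-type members of the alpha cluster stayed near the floor. Pcdhac2, which serotonergic axons need to tile their targets, had 1.04 and 2.39 normalized counts in Undiff and 7.31 and 5.37 in Day4, and did not pass (adjusted p = 0.054, edgeR). Its mean was also below the minimum of 5. Pcdhac1 held 1 count in each state, which does not allow a fold change. The 3 gamma C-type members summed to 243 and 268 normalized counts in Undiff and to 3340 and 3110 in Day4 (12.6-fold), a larger factor than that of the gamma-A or gamma-B members. Without Pcdhgc3, the other 21 gamma members went from 712 and 700 to 4650 and 4540 (6.51-fold).

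Summed over its members, the alpha cluster had 16.7 and 14.4 normalized counts in Undiff and 210 and 198 in Day4 (13.1-fold). The beta cluster went from 80.2 and 88.5 to 4620 and 4630 (54.8-fold), and the gamma cluster from 931 and 936 to 7790 and 7430 (8.15-fold). The replicates of a state lay close together in each cluster, and the states did not overlap. Per kilobase of own exon the factors were 13.9, 50.7 and 8.13, in the same order. All 58 members together made up 26.9 and 27 CPM (counts scaled to the library total) in Undiff and 346 and 334 CPM in Day4.

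The balance of the clusters shifted from gamma towards beta. Gamma members held 90.6% and 90.1% of the clustered protocadherin counts in Undiff and 61.7% and 60.6% in Day4, and beta members 7.81% and 8.53%, then 36.6% and 37.8%. The alpha share was 1.62% and 1.38% in Undiff and 1.66% and 1.62% in Day4, so that a library of each state stood at 1.62%. The gamma sum was 11.6 and 10.6 times the beta sum in Undiff and 1.69 and 1.6 times in Day4. These shares leave out the shared exons, which hold more of the alpha and gamma transcripts than of the beta ones, so that they compare the clusters between states and do not give the proportions of transcripts.

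**Figure D4:**
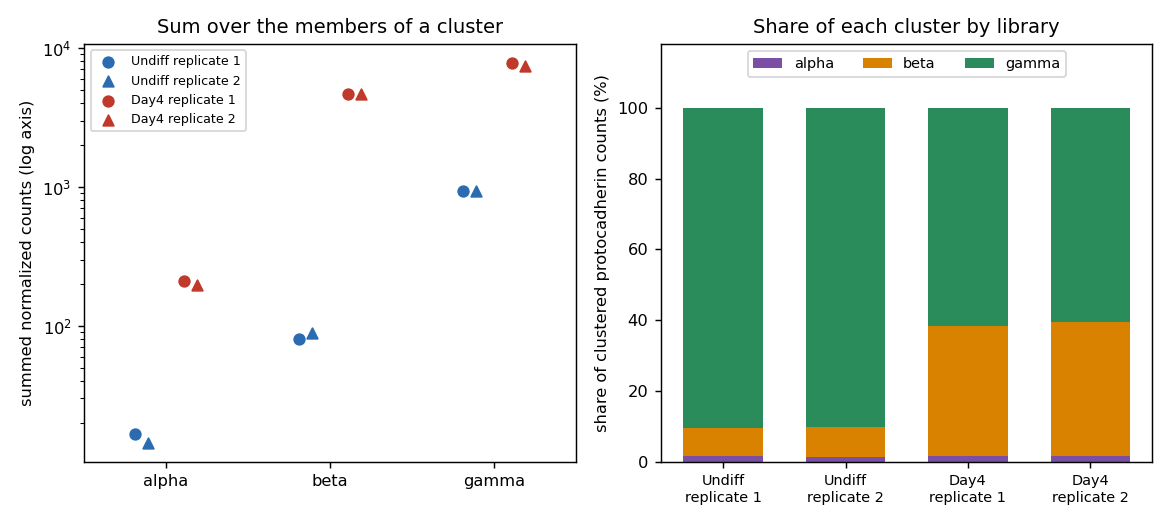
Left, normalized counts summed over the members of each cluster in each library, on a log axis, with Undiff in blue, Day4 in red, circles for replicate 1 and triangles for replicate 2. Right, the share in percent that each cluster takes of all clustered protocadherin counts in each library, from 90.6% and 90.1% gamma in Undiff to 61.7% and 60.6% in Day4.

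More members were detected in Day4. With more than 3 counts as the criterion, the libraries held 29 and 28 of the 58 members in Undiff and 52 in each Day4 library. In alpha these were 0 and 0, then 8 and 9 of 14. In beta they were 8 and 8, then 22 and 21 of 22. In gamma, 21 and 20 of 22 were already detected in Undiff and all 22 in Day4. The numbers were the same after the libraries were thinned to the smallest total. The share of all genes detected at this criterion is not given here. At the paper's lower read criterion, each Day4 library held fewer detected genes over all genes than either Undiff library.

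The makeup of the clusters in Day4 was close to equal in the 2 replicates. The largest difference in any member's share of its cluster was 1.27 percentage points in beta (Pcdhb20), 1.4 in gamma (Pcdhgc3) and 2.21 in alpha (Pcdha12, on 201 and 258 counts for the whole cluster). In Undiff it was 3 points in gamma, 6.81 in beta on 77 and 74 counts, and 25 in alpha on 16 and 12 counts. In Day4, 2 gamma members held at least 50% of the counts of their cluster in each library, Pcdhgc3 with 40.3% and 38.9% and Pcdhga7 with 11.3% and 11.4%. In beta, 4 members were needed, Pcdhb22 with 18.6% and 19.4%, Pcdhb11 with 11.6% and 12%, Pcdhb19 with 11% and 10.9% and Pcdhb20 with 10.6% and 9.33%. In alpha, Pcdha2 with 35.8% and 35.3% and Pcdha5 with 18.4% and 20.2% made up at least 50%. These are sums over many cells, and they do not show which members a single cell used.

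The non-clustered protocadherins lie elsewhere in the genome or farther along the chromosome and share no exons. Of 11 listed, 9 rose (81.8%, against 22.2% of all genes tested), 0 fell and the median log2 fold change was 4.43. Pcdh18 rose from 86.5 and 88.5 to 5470 and 5470 normalized counts (log2 fold change 5.97 ± 0.07), while Pcdh1 and Pcdh8 did not pass. The genes around and between the clusters did not follow. Of 33 neighbours within 500 kb that are no protocadherins, 2 rose and 8 fell, 6.06% and 24.2%. Among all genes tested 22.2% rose and 20.6% fell, so that the share that fell was near that of all genes. The 33 neighbours include 3 without a count, whereas the shares over all genes tested leave such genes out. The median log2 fold change was -0.21 over the 30 neighbours tested.

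Taf7, a subunit of the general transcription factor TFIID that lies between the beta and the gamma cluster, fell from 5050 and 5340 to 2070 and 1950 normalized counts (log2 fold change -1.37 ± 0.05, adjusted p = 2.2e-11, edgeR). On the alpha side, Dnd1, an RNA-binding germ-cell factor, fell from 446 and 430 to 55.4 and 51.4 (-3.04 ± 0.13), and Hbegf, a growth factor of the EGF family, from 940 and 1110 to 145 and 157 (-2.75 ± 0.11). E230025N22Rik had 39.6 and 34.7 normalized counts in Undiff and 2.09 and 0 in Day4. The neighbours with the highest values were Pcdh12, itself a non-clustered protocadherin, 1700086O06Rik, from 41.7 and 56.2 to 240 and 238 (2.30 ± 0.16), and Slc35a4, from 1960 and 1950 to 4780 and 4390 (1.23 ± 0.05). Taf7 was named after its value was seen.

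**Figure D5:**
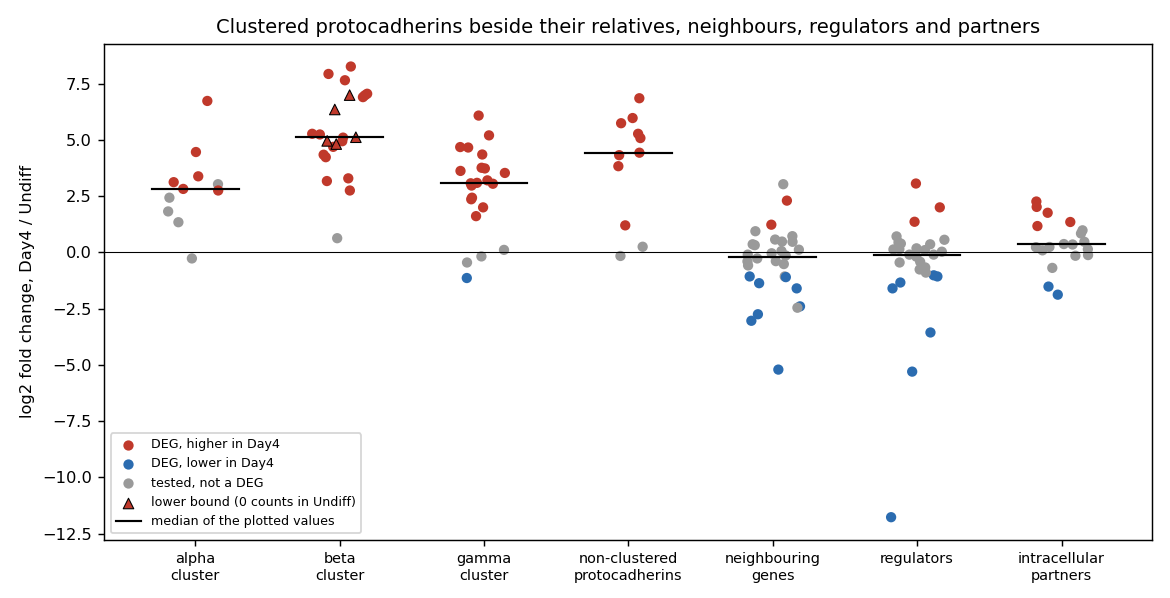
Log2 fold change between Day4 and Undiff (vertical axis) of every tested gene in the 3 clusters and in 4 lists set beside them, which are the non-clustered protocadherins, the genes within 500 kb that are no protocadherins, the regulators and the intracellular partners. Red points are DEGs that are higher in Day4, blue points DEGs that are lower, grey points did not pass, triangles are lower bounds, and black bars are medians, at 2.82, 5.11 and 3.08 for alpha, beta and gamma and at 4.43 and -0.21 for the first 2 lists.

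Of 28 genes with known roles at protocadherin promoters, 3 rose and 7 fell, which is 10.7% and 25% against 22.2% and 20.6% of all genes tested, with a median log2 fold change of -0.10. Of the 11 genes of CTCF and cohesin, 0 rose and 1 fell. Ctcf, the insulator protein that binds these promoters, had 7950 and 8350 normalized counts in Undiff and 8550 and 8880 in Day4 (0.10 ± 0.04), and the cohesin subunit Rad21 had 15100 and 16000, then 14200 and 14800 (-0.10 ± 0.04), and neither passed. Wapl, listed under its older symbol Wapal and known to unload cohesin from DNA, was the exception, at 12000 and 12700, then 5930 and 5890 (-1.07 ± 0.04). That call was lost, at -1, when counts were scaled by library totals in place of TMM.

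Among the genes of DNA methylation, Dnmt3b, the methyltransferase known to act on variable protocadherin promoters, fell from 19100 and 18100 to 469 and 471 normalized counts (log2 fold change -5.30 ± 0.06, adjusted p = 2.8e-16, edgeR). Its cofactor Dnmt3l fell from 12600 and 13000 to 4.18 and 3.07 (-11.77 ± 0.11). Uhrf1, which guides maintenance methylation, fell by 1.34 on the log2 scale, from 15300 and 14600 to 5850 and 6000. Tet1, which oxidizes methylated cytosine, fell from 22800 and 25300 to 2000 and 2070 (-3.56 ± 0.06), whereas Tet3, of the same family, rose from 561 and 608 to 4980 and 4730 (3.06 ± 0.06). Dnmt3a, at 10200 and 10200, then 16800 and 16700, changed by 0.71 ± 0.04 on the log2 scale and was not a DEG.

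Among the silencing factors, Rest, a repressor of neuronal genes that also binds an alpha-cluster enhancer, fell from 7880 and 7910 to 2680 and 2520 normalized counts (log2 fold change -1.60 ± 0.05). Trim28, a corepressor, went from 61700 and 65400 to 31000 and 31700 (-1.02 ± 0.04), a call that was lost with library totals (-0.95) and without Undiff replicate 2 (-0.98). Wiz, a zinc-finger protein, rose from 1560 and 1600 to 4050 and 4050 (1.36 ± 0.05). Smchd1 and Setdb1, which are known to silence the clusters, changed by 0.18 ± 0.04 and 0.03 ± 0.05 on the log2 scale and were not DEGs.

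Of 19 genes whose products act with the cytoplasmic side of protocadherins, 5 rose and 2 fell, which is 26.3% and 10.5% and puts the share that rose near the 22.2% of all genes. Those that rose were Marcks, an actin-binding protein (from 3000 and 3120 to 14700 and 14600 normalized counts, log2 fold change 2.26 ± 0.04), and Adam10, the protease that sheds their ectodomains (from 1900 and 1780 to 7480 and 7510, 2.02 ± 0.05). The WAVE-complex subunits Abi1 (1.76 ± 0.05) and Wasf1 (1.17 ± 0.06) and the kinase Fyn (1.35 ± 0.05) rose as well. The other 6 subunits of that complex on the list did not pass. The kinases that fell were Ptk2b (from 794 and 850 to 224 and 223, -1.88 ± 0.08) and Ret (from 148 and 164 to 49.1 and 57.6, -1.52 ± 0.17). Over the list the median log2 fold change was 0.35.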

How the data were processed

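RNA of R1 ESCs was measured in 2 Undiff and 2 Day4 TruSeq libraries, grouped by their titles. The authors used cutadapt for trimming, STAR 2.4.2a for alignment to mm10 and HTSeq to count uniquely aligned fragments per gene. The deposited values are raw counts per gene symbol. Fragments on more than 1 gene, between 1.84% and 1.91% of fragments per library, were assigned to no gene. Per the methods, counting took account of strandedness, with only the Direct RNA libraries named as strand-specific. The labels name an unstranded TruSeq kit and a strand-specific one. The overlap mode is not given in the sources used here.

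Counts were scaled by TMM to a common library size and tested with edgeR 4.0.16 (glmQLFit, legacy=FALSE, and glmQLFTest) in R 4.3.3 over the 19891 genes with a count, with Benjamini-Hochberg adjustment over these genes and no replicate term. Each state has 2 libraries, described as separately grown samples. DEG thresholds were those of the study. The SE is the log2 fold change over the root of F. Where pooled Undiff counts were 1 to 3, an exact conditional ratio interval (95%) is given, and at 0 counts a bound against 3 counts over the group. On simulated counts for this comparison (19519 genes), 199 of 200 changed genes were recovered, with 1 false call. The changed genes all had counts well above the floor, and a single small spread was set for every gene. That check therefore does not cover members with few counts.

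The members and the lists were chosen with earlier results of these data known. Named genes were, in each cluster, the 5 highest and 5 lowest log2 fold changes among DEGs, the 3 highest levels per kilobase in each state, all C-type members and any DEG against its cluster's direction, then the DEGs of the regulator and partner lists and the 3 highest and 3 lowest neighbours. Other members were named after their values were seen, and 1 gene of the regulator list is not reported here by name. Gene positions, own bases and overlaps came from GENCODE vM21 on GRCm38, the assembly of mm10, matched by symbol, with Pcdha10 matched by its RefSeq start. The authors counted on an mm10 annotation from UCSC, so that overlaps may differ. Alternatives were DESeq2 1.42.0 with the study's settings, DESeq2 size factors, library totals, filterByExpr, a replicate block, no minimum mean count, no minimum fold change, leaving out each library, levels per kilobase, thinning, a minimum of 10 counts and, chosen after seeing the data, edgeR's legacy dispersion.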

Additional observations from a re-analysis of the deposited data

How the results depend on the processing

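The numbers of alpha, beta and gamma members that were DEGs (6, 21 and 19) were the same with DESeq2 under the study's settings, DESeq2 size factors, library totals, filterByExpr, no minimum mean count, no minimum fold change and the legacy dispersion. Leaving out each library in turn gave 5 to 6 alpha, 20 to 21 beta and 18 to 19 gamma DEGs, 9 to 10 regulators, 7 partners each time, 8 to 9 non-clustered protocadherins and 10 to 11 neighbours. Without a minimum fold change, 24 regulators, 16 partners and 23 neighbours passed in place of 10, 7 and 11, since the adjusted p alone then decided. The summed fold was 50.7 per kilobase for beta and 8.54 with library totals for gamma, in place of 54.8 and 8.15. Without a library the folds ranged from 12.2 to 14.2 (alpha), 52.2 to 57.6 (beta) and 7.96 to 8.35 (gamma). At a minimum of 10 counts, the mean number of members detected was 20 in Undiff and 49 in Day4, in place of 28.5 and 52. Without a library, the log2 fold change of Pcdhga1, which did not pass, ranged from -0.05 (without Undiff replicate 2) to 0.31, and that of Pcdhac1, at 1 count per state, from -2.36 to 2.22 (without Undiff replicate 1), with 0.39 without Day4 replicate 1. Over 52 named genes, 613 of the values under the alternatives kept their direction and side of the thresholds, 6 kept their direction and no longer passed, and these 3 turned. Values without a minimum mean count or fold change came from the main fit, so that they could not turn or cease to pass. No effect shared by libraries of the same replicate number was seen (correlation of replicate differences between the states -0.01 over 16472 genes). That value cannot show whether the cultures were paired. A replicate block left 6 alpha, 21 beta and 19 gamma members, 10 regulators, 7 partners, 9 non-clustered protocadherins and 11 neighbours as DEGs, and moved the number over all genes from 8521 to 8515. The scaling moved the median log2 fold change of all genes between -0.06 and 0.04. Depth limits the alpha members most, at 16 and 12 counts per Undiff library.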
